A study of Homo sapiens with 15 samples.

Results

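Cells that run short of amino acids, or that are stressed in other ways, slow their protein synthesis and turn on the transcription factor ATF4. The 10 genes described here are ATF4 and 9 genes that serve this response: the transcription factors ATF3, ATF5, DDIT3 (CHOP) and CEBPB, the enzymes ASNS and CHAC1, the pseudokinase TRIB3, and the mTORC1 inhibitors DDIT4 and SESN2. They were taken as a named set, found by Ensembl identifier through the reference annotation, and make up 10 of the 31352 genes in the table. All 10 had enough reads to be among the 15122 genes tested.

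RNA was measured by polyA RNA-seq in 15 libraries of a human cell line, 3 in each of 5 groups. EV is the isogenic empty vector control. NICD1, NICD2, NICD3 and NICD4 are cells in which doxycycline switches on 1 of the 4 human NOTCH intracellular domains, numbered as their receptors. This domain is the part of the receptor that is cut free on activation and goes to the nucleus, where it works with the DNA-binding protein RBPJ. The labels call the line HCT116, a colorectal carcinoma line, while the sample descriptions carry the name of U373, a glioma line. For NICD4 replicate 1, some label fields name NICD3, and the library was kept in NICD4 by its title and description. Without it, all 40 changes of the 10 genes against EV kept their direction and call, with smaller rises of ATF5 (1.33 in place of 1.54), TRIB3 (0.88 in place of 1.08) and SESN2 (0.79 in place of 0.93) in NICD4 on the log2 scale. For NICD3 replicate 1, the genotype field runs the digits 2 and 3 together, and its group comes from its title, source and description. Without it, 37 of the 40 changes kept direction and call, TRIB3 in NICD3 lost its call (0.36, adjusted p = 0.075), and the uncalled changes of DDIT3 (0.0075) and ASNS (-0.0281) in NICD3 changed sign. The dose and duration of doxycycline, whether EV cells received it, and the number of clones behind each line are not given in the sources used here. Nothing says that the 3 libraries of a group came from separate cultures, so the p-values measure the spread between these libraries, which may be technical.

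Libraries held 11630195 to 27704492 counted reads. Between libraries of 1 group the chi-square statistic per gene was 1.35 to 50.8, above the value that sampling noise gives, so none was treated as a copy of another. The scaling factors of the trimmed mean of M values (TMM) were 1.21 to 1.32 in EV and 0.79 to 1.09 in the NICD groups, so scaling matters to every comparison with EV. Of 12 colorectal markers, 7 were over 1 CPM in all EV libraries, and their summed level was 2130 to 2712 CPM in EV and 9698 to 23383 CPM in the NICD groups. Most of that sum in EV and NICD3 came from 3 keratins. KRT8, KRT18 and KRT19 were at 1063, 393 and 704 CPM in EV and 12607, 4695 and 2556 CPM in NICD3. EPCAM was at 153 CPM in EV and 222, 281, 231 and 151 CPM in NICD1 to NICD4. CDX2 was at 17.8 CPM in EV and 49.4, 37.7, 40.9 and 60.8 CPM in NICD1 to NICD4. CDX1 was at 0 in EV and CDH17 was at most 0.154 CPM there. Of 10 astrocyte and glioma markers, 4 were over 1 CPM in EV, with a sum of 52.8 to 56.4 CPM there and 22.8 to 60.3 CPM in the NICD groups, and FABP7 was at 0 and OLIG2 at most 0.0309 CPM in EV. Most of that sum in EV was NES (29.7 CPM) and VIM (21.7 CPM), and VIM stood at 0.626, 1.85, 2.19 and 1.06 CPM in NICD1 to NICD4. ALDH1L1 stood at 1.51 CPM in EV and 30.0 CPM in NICD3. The part of these marker levels in the results below was not tested. In bulk RNA, fewer cells that express a gene and less of its RNA per cell cannot be told apart.

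As background, eIF2 kinases sense uncharged tRNA, unfolded protein, haem loss or double-stranded RNA and phosphorylate the initiation factor eIF2. General translation then falls, but the ATF4 messenger RNA, with its short upstream reading frames, is translated better. ATF4 protein binds CCAAT/enhancer-binding protein and ATF composite sites (CARE) together with C/EBP partners. It raises genes that import and make amino acids, charge tRNA, and hold mTORC1 in check. Because ATF4 is controlled largely at translation, its RNA level is not a measure of its activity.

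The 300 bases around each annotated start in RefSeq (GRCh38.p14, 250 before and 50 after) were searched on both strands for the CARE core TGATGNAA, the RBPJ core GTGGGAA and the cyclic AMP response element TGACGTCA. All 10 genes had such windows, 19 in all. The CARE core was found upstream of the start in 3 genes, the RBPJ core in 1, and the cyclic AMP response element in none. The matches are shown because these cores are the letters that ATF4 with its partners, and RBPJ, are known to bind. Capitals mark the matched core, and each stretch is read 5′ to 3′ on the strand of its gene.
ATF3, chr1:212565205-212565234, plus strand: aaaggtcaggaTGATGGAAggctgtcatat
CHAC1, chr15:40953251-40953280, plus strand: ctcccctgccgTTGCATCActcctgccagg
ASNS, chr7:97872458-97872487, minus strand: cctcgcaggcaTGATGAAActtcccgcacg
ATF5, chr19:49929040-49929068, plus strand: ggaccctaggaGTGGGAAggaaaggctcg

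The ATF3 match lies 191 to 184 bases before one of its starts and the ASNS match 68 to 61 bases before one of its starts, both on the strand of the gene. The CHAC1 match, 209 to 202 bases before the start, is on the opposite strand. The RBPJ core of ATF5 lies 154 to 148 bases before one of its starts. Among all 35116 such windows 3.62% held the CARE core, 6.25% the RBPJ core and 1.85% the cyclic AMP response element, and the shares were 2.03%, 5.77% and 2.71% among the 16007 windows of tested genes. A gene can have several windows, so these shares of windows are not shares of genes. A match describes letters only. The 3 genes with a CARE core did not move alike below: ATF3 fell in every NICD group, CHAC1 rose in every one, and ASNS rose in NICD2 and NICD4.

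Against EV, most of the set was higher. Changes are log2 differences ± SE from limma (n = 3 per group), and a gene is said to rise or fall where its p, adjusted over all tested genes by Benjamini and Hochberg, is under 0.05. In NICD1, 6 of the 10 rose and 1 fell, where 35.6% of all tested genes rose and 39.8% fell. In NICD2, 8 rose and 2 fell, against 29.6% and 30.0% of all genes. In NICD3, 5 rose and 1 fell, against 33.0% and 36.2%, and in NICD4, 7 rose and 1 fell, against 37.3% and 43.6%. The median change of the 10 genes was 0.59, 0.55, 0.28 and 0.74 in NICD1 to NICD4, beside -0.08, -0.03, -0.07 and -0.12 over all genes. ATF5, TRIB3, CHAC1 and CEBPB rose in all 4 comparisons, as did 23.1% of all genes, and ATF3 fell in all 4, as did 23.3%. The 4 comparisons share the EV libraries. Libraries that do not overlap were common: the groups were apart in 80.5%, 69.2%, 79.1% and 81.7% of all tested genes against EV. Between pairs of NICD groups that share was 30.2% (NICD3 against NICD1) to 67.1% (NICD4 against NICD2).

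**Figure D1:**
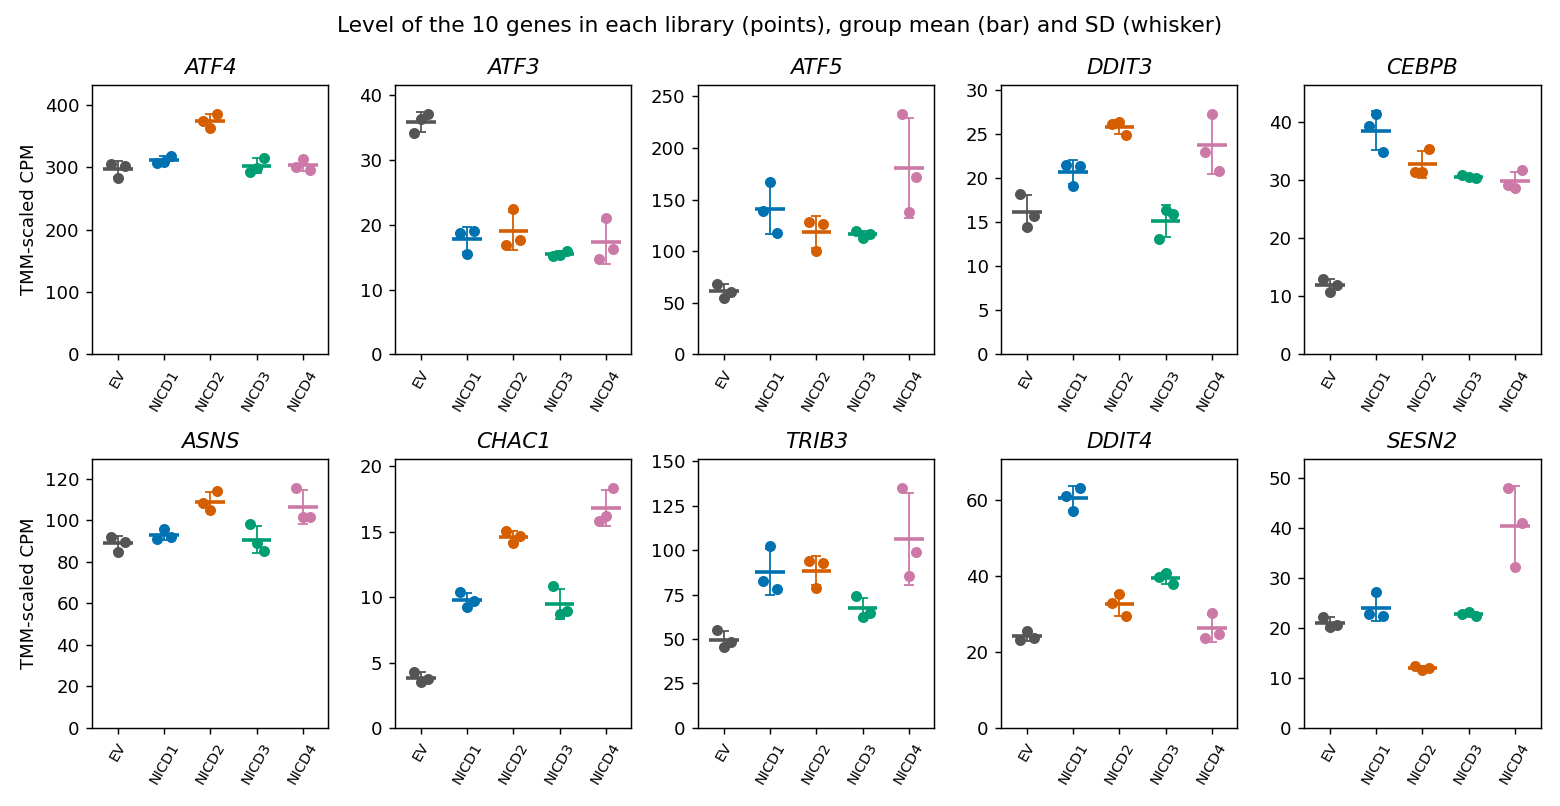
Level of each of the 10 genes in TMM-scaled CPM (y axis, from 0) by group (x axis); points are the 3 libraries of a group, bars the mean and whiskers the SD. In ATF5, CHAC1, CEBPB and TRIB3 all 12 NICD libraries lie above the 3 EV libraries, and in ATF3 all lie below. Such separation from EV was usual, at 80.5%, 69.2%, 79.1% and 81.7% of all tested genes for NICD1 to NICD4. The SESN2 libraries are lowest in NICD2 and highest in NICD4.

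The GC content of transcripts and the scaling bear on these values and are given beside them. Changes against EV rose with the GC content of the transcript: the median over all genes went from -0.66, -0.33, -0.53 and -0.87 in the quintile of genes with the lowest GC content to 0.68, 0.35, 0.53 and 0.96 in the highest quintile, for NICD1 to NICD4. In that highest quintile 64.9%, 49.4%, 59.0% and 71.8% of genes rose. Of the 10 genes, 6 lie in it, SESN2 (59.5% GC), CHAC1 (61.8%), TRIB3 (62.0%), ATF5 (62.5%), DDIT4 (65.1%) and CEBPB (66.2%). ATF4 (55.4%), ATF3 (50.9%), DDIT3 (50.6%) and ASNS (43.9%) lie in lower quintiles. With this trend removed from each library, 7, 7, 4 and 5 of the 10 rose and 2, 2, 2 and 3 fell, and the median change of the 10 was 0.50, 0.58, 0.05 and 0.20, beside 0.04, 0.08, 0.04 and 0.00 over all genes. Of all 14737 genes in that fit, 5698, 5305, 5376 and 5593 rose and 4702, 3602, 4394 and 5466 fell. What part of each change goes with GC content was not tested beyond these values. Scaling by total reads in place of TMM shifted the median of all genes by -0.45, -0.28, -0.41 and -0.54, and the share of calls that were rises went from 47.2%, 49.7%, 47.7% and 46.1% to 28.0%, 29.9%, 26.7% and 29.1%. Under that scaling 5, 5, 3 and 5 of the 10 rose and 4, 2, 5 and 4 fell. Over all 15122 tested genes, 3306, 2841, 3011 and 3647 rose and 8494, 6668, 8262 and 8872 fell in the same fit.

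**Figure D2:**
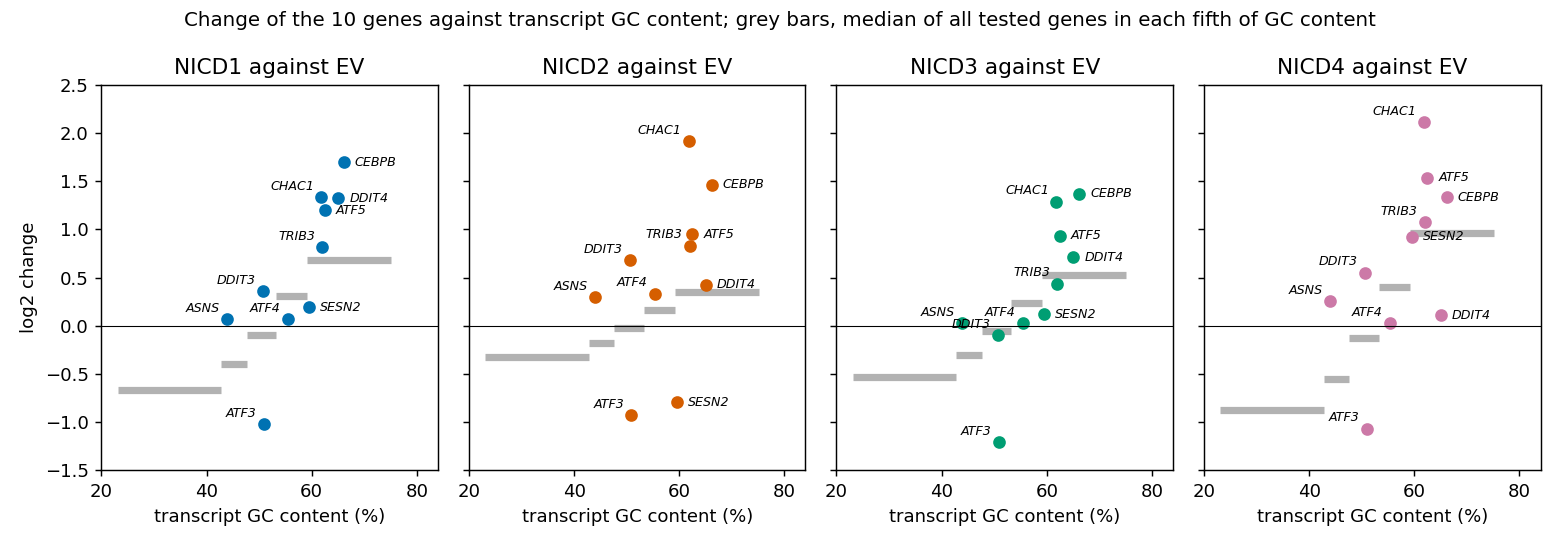
Log2 change against EV (y axis) by transcript GC content in percent (x axis), 1 panel for each NICD group; points are the 10 genes and grey bars the median of all tested genes in each quintile of GC content. The bars climb from left to right in each panel, CHAC1 and CEBPB lie above the bar of their quintile, and ATF3 lies below the bar of its quintile.

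ATF4 itself (ENSG00000128272, chromosome 22, 39915700 to 39918691, GRCh37, plus strand) hardly moved, except in NICD2. Its level was 306, 283 and 303 CPM in the EV libraries and 306, 310 and 319 in NICD1. It was 375, 363 and 386 CPM in NICD2, 292, 300 and 316 in NICD3, and 301, 314 and 296 in NICD4. All 3 NICD2 libraries lay above the other 12, while NICD3 and NICD4 overlapped EV. ATF4 rose in NICD2 by 0.33 ± 0.07 (1.26-fold, limma adjusted p = 0.00087), and missed the threshold elsewhere, at 0.07 in NICD1 (adjusted p = 0.38), 0.02 in NICD3 (0.76) and 0.03 in NICD4 (0.71). The 95% intervals reach up to a 1.13-fold rise in NICD3 and NICD4 and a 1.16-fold rise in NICD1. NICD2 was also higher than NICD1 by 0.27 (adjusted p = 0.010) and NICD3 was lower than NICD2 (-0.31, adjusted p = 0.0079). With the GC trend removed, the change in NICD2 was 0.25 and was called, that in NICD4 reversed to -0.31 and was called, and those in NICD1 and NICD3 were -0.14 and -0.16 and were not. With a trend on transcript length removed instead, ATF4 rose in NICD1 (0.26), NICD3 (0.20) and NICD4 (0.17) as well. By total reads ATF4 was 0.05 in NICD2 (adjusted p = 0.61) and fell in the others (-0.39, -0.39 and -0.52).

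Upstream of ATF4 stand the eIF2 kinases, and these went in different directions. EIF2AK1 (HRI, the haem-regulated kinase) rose in all 4 groups, from 160 CPM in EV to 278, 224, 256 and 267 CPM, by 0.80, 0.48, 0.68 and 0.74, and by 1.14, 0.71, 0.95 and 1.14 with the GC trend removed. EIF2AK3 (PERK, which senses unfolded protein) fell from 5.99 to 2.52, 3.82, 2.95 and 3.38 CPM (changes of -1.30, -0.66, -1.02 and -0.82). Removal of the GC trend left calls in NICD1 (-0.73) and NICD3 (-0.56) and none in NICD2 (-0.32) or NICD4 (-0.11). The call in NICD2 was also lost without any 1 of the EV libraries, NICD2 replicates 1 or 3, NICD3 replicate 3 or NICD4 replicate 3, where the change was -0.54 to -0.75. EIF2AK4 (GCN2, the sensor of uncharged tRNA and so the kinase of amino acid starvation) fell in NICD2 (-0.30) and NICD3 (-0.51) and did not pass in NICD1 (-0.20) or NICD4 (-0.17). Its sign reversed with the GC trend removed in NICD1 (0.31, called), NICD2 (0.02, not called) and NICD4 (0.46, called), and in NICD3 the call was lost (-0.10). The call in NICD2 was lost without EV replicate 2 or 3 or any 1 of the NICD2 libraries (-0.19 to -0.31), and without EV replicate 1 EIF2AK4 fell in NICD1 (-0.32) and NICD4 (-0.28) too. By total reads EIF2AK4 also fell in NICD1 (-0.66, adjusted p = 0.00017) and NICD4 (-0.71, adjusted p = 6.4e-05), and with the length trend removed its call in NICD2 was lost (-0.23). EIF2AK2 (PKR, the sensor of double-stranded RNA) fell in all 4 (-0.83, -0.54, -0.52 and -0.99), and in none with the GC trend removed (-0.11, -0.12, 0.07 and -0.12). IMPACT, an inhibitor of GCN2 activation, fell from 24.0 CPM to 12.8, 13.1, 14.1 and 10.8 CPM, and with the GC trend removed the call held in NICD2 (-0.44). Of the 11 tested genes on the list of kinases and their activators, 3, 2, 2 and 3 rose and 5, 5, 5 and 7 fell, with medians of -0.20, -0.12, -0.28 and -0.79. These counts moved with the GC trend removed, to 5, 4, 2 and 4 that rose and 2, 2, 2 and 3 that fell, with medians of 0.24, 0.05, 0.04 and -0.11. As fitted, 35.6%, 29.6%, 33.0% and 37.3% of all tested genes rose and 39.8%, 30.0%, 36.2% and 43.6% fell. These shares are the same for every list below.

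The 2 regulatory subunits that bring phosphatase to eIF2, and so end the response, were both lower with NICD. PPP1R15A (GADD34, itself induced by ATF4 and CHOP) fell from 91.8 CPM in EV to 52.6, 44.1, 52.1 and 60.4 CPM (log2 change -0.80, -1.06, -0.82 and -0.60), or -1.16, -1.21, -1.12 and -1.15 with the GC trend removed. PPP1R15B (CReP, the constitutive subunit) fell from 50.6 to 16.6, 22.4, 17.1 and 13.4 CPM (log2 change -1.63, -1.18, -1.56 and -1.95), or -1.08, -0.85, -1.12 and -1.28 with the trend removed. EIF2B4, a subunit of the exchange factor that phosphorylated eIF2 blocks, rose by 0.80, 0.57, 0.68 and 0.91 and held its calls with the GC trend removed. EIF2A, an alternative initiation factor, fell (log2 change -1.19, -0.50, -0.87 and -1.73). Its call in NICD2 was lost with the GC trend removed (-0.09) and without any 1 of EV replicates 2 and 3 and NICD2 replicates 1 and 3 (-0.41 to -0.48). Over the 15 tested genes of eIF2, eIF2B and the phosphatase, 6, 5, 6 and 6 rose and 7, 5, 5 and 9 fell, with medians of -0.13, 0.04, -0.10 and -0.37. The counts with the GC trend removed were 7, 9, 9 and 7 that rose and 4, 2, 4 and 7 that fell, with medians of 0.18, 0.27, 0.26 and -0.09.

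Among the transcription factors, ATF3 fell in every NICD group. ATF3 (ENSG00000162772, chromosome 1, 212738676 to 212794119, plus strand) is a repressor and activator of the same bZIP family that stress, growth factor and cytokine signals induce early. It stood at 34.2, 36.4 and 37.2 CPM in EV. Its levels were 18.8, 15.5 and 19.0 CPM in NICD1, 16.9, 22.4 and 17.7 in NICD2, 15.2, 15.3 and 16.0 in NICD3, and 14.6, 21.01 and 16.2 in NICD4. No NICD library reached the lowest EV library. The fall was -1.02 ± 0.13 in NICD1 (limma adjusted p = 9.1e-06), -0.93 in NICD2 (4.3e-05), -1.21 in NICD3 (2.4e-06) and -1.07 in NICD4 (3.8e-06), or 2.03-fold, 1.90-fold, 2.31-fold and 2.10-fold lower. It hardly changed with the GC trend removed (-0.91, -0.82, -1.13 and -0.97) and was larger when scaled by total reads (-1.48, -1.21, -1.63 and -1.61). The F-test over the 4 NICD groups did not call ATF3 (limma adjusted p = 0.28), alone among the 10 genes, and with the GC trend removed it did not call ATF5 either (adjusted p = 0.18).

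CEBPB, which encodes a C/EBP partner of ATF4, rose 2.52-fold to 3.24-fold in the NICD groups. CEBPB (ENSG00000172216, chromosome 20, 48807376 to 48809212, plus strand) stood at 13.1, 10.7 and 11.9 CPM in EV. It stood at 39.5, 41.5 and 34.8 CPM in NICD1, 31.4, 31.5 and 35.4 in NICD2, 30.99, 30.6 and 30.4 in NICD3, and 29.2, 28.7 and 31.7 in NICD4. The lowest NICD library was well above the highest EV library. The rises were 1.70 ± 0.09 in NICD1 (limma adjusted p = 1.6e-09), 1.46 in NICD2, 1.37 in NICD3 and 1.33 in NICD4. In this fit NICD1 was highest, and NICD3 and NICD4 lay below it, with differences of -0.33 (adjusted p = 0.046) and -0.37 (adjusted p = 0.011). Removal of the GC trend left 0.80, 1.06, 0.71 and, no longer called, 0.12 in NICD4 (adjusted p = 0.30), and NICD4 then lay below NICD1 (-0.68) and NICD2 (-0.93). NICD2 then had the highest value, NICD3 against NICD1 was not called (-0.09, adjusted p = 0.61), and neither was NICD2 against NICD1 (0.26, adjusted p = 0.073). By total reads the rises were 1.24, 1.18, 0.95 and 0.79.

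ATF5 (ENSG00000169136, chromosome 19, 50431974 to 50437192, plus strand), an ATF4 relative under the same translational control that also directs mitochondrial stress genes, rose in every group and most in NICD4. Its EV libraries were at 68.2, 54.6 and 60.5 CPM. Those of NICD1 were at 139, 167 and 118, of NICD2 at 128, 100 and 126, of NICD3 at 120, 113 and 117, and of NICD4 at 233, 138 and 171 CPM. The NICD libraries all lay above EV, and the NICD4 libraries were widely spread. The changes were 1.20 ± 0.17 (limma adjusted p = 1.8e-05), 0.95, 0.93 and 1.54 (1.1e-06). NICD4 replicate 1, the highest library, also had the strongest lean towards GC-rich genes, with the genes of the top GC quintile 1.24 above those of the bottom quintile (log2, relative to the mean of all libraries), where the other NICD4 libraries had 0.50 and 0.77 and the EV libraries -0.82 to -1.09. ATF5 still rose with the GC trend removed, by 0.54, 0.66, 0.43 and 0.60, but the differences of 0.59 and 0.60 by which NICD4 exceeded NICD2 and NICD3 became -0.06 and 0.17 and were not called. ATF5 overlaps NUP62 on the opposite strand (27126 reads in all libraries, beside 32432 for ATF5). The strand setting of the counting is not given in the sources used here, so reads of the overlap may belong to either gene.

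DDIT3 (ENSG00000175197, chromosome 12, 57910371 to 57914300, minus strand) encodes CHOP, the pro-apoptotic C/EBP relative that ATF4 induces in lasting stress. It stood at 18.2, 14.5 and 15.6 CPM in EV, 21.5, 19.1 and 21.4 in NICD1, and 26.1, 26.3 and 24.9 in NICD2. In NICD3 it stood at 13.04, 16.4 and 15.9 CPM, within the range of EV or below it, and in NICD4 at 22.97, 27.3 and 20.8. It rose in NICD2 by 0.68 ± 0.12 (limma adjusted p = 0.00022), in NICD4 by 0.55 (0.00057) and in NICD1 by 0.36 (0.012), and was -0.09 in NICD3 (adjusted p = 0.49). The call in NICD1 was lost without EV replicate 2 (0.29, adjusted p = 0.059). NICD3 was lower than NICD1 (-0.46), NICD2 (-0.78) and NICD4, which exceeded it by 0.65, all with adjusted p under 0.05. The GC trend made little difference to DDIT3 (0.49, 0.79, 0.00 and 0.67 with it removed). By total reads it was -0.09, 0.40, -0.51 and 0.01, so the rises in NICD1 and NICD4 depend on the scaling. DDIT3 overlaps MARS1 on the opposite strand, which had 37974 reads beside 5694 for DDIT3. The changes of MARS1 were -0.21, 0.03, -0.15 and -0.33. As for ATF5, reads of the overlap may belong to either gene, and their part in the DDIT3 values was not tested.

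Of 13 other tested bZIP genes that can pair with ATF4 or share its sites, 4, 4, 3 and 3 rose and 7, 3, 7 and 7 fell (medians -0.48, -0.04, -0.31 and -0.57), or 3, 3, 3 and 2 that rose and 7, 1, 6 and 9 that fell with the GC trend removed (medians -0.37, -0.08, -0.14 and -0.83). MAFK, a small MAF partner, rose by 1.18, 1.22, 1.06 and 1.59, and by 0.35, 0.85, 0.44 and 0.45 with the GC trend removed. The other small MAF genes did not follow it. MAFF fell in all 4 groups as fitted, and by -1.15, -0.80, -1.14 and -1.39 with the GC trend removed. MAFG with that trend removed was -0.81, -0.31, -0.81 and -1.48, and only the change in NICD2 was not called. NFE2L2 (NRF2, the regulator of antioxidant genes) fell from 56.8 CPM in EV to 13.7, 33.7, 21.6 and 8.64 CPM (log2 change -2.10, -0.79, -1.39 and -2.75). Its call in NICD2 was lost with the GC trend removed (-0.47) and when single libraries were left out, namely EV replicates 2 and 3, NICD2 replicates 1 and 3, NICD3 replicate 3 and NICD4 replicate 3 (-0.62 to -0.79).

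**Figure D3:**
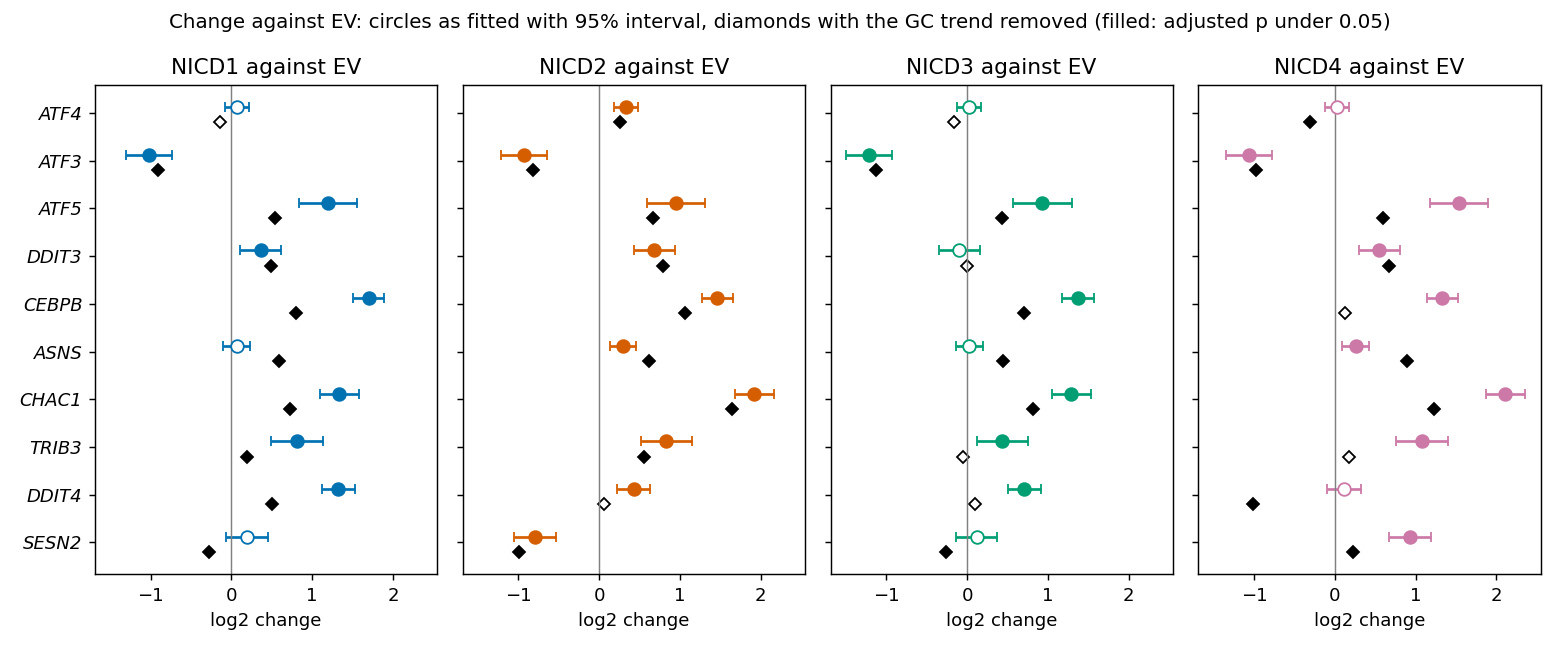
Log2 change against EV (x axis) of each gene (y axis), 1 panel for each NICD group; circles are the fitted change with its 95% interval and diamonds the change with the GC trend removed, filled where adjusted p is under 0.05. ATF3, ATF5 and CHAC1 keep their side and their call in all 4 panels, ASNS moves up with the trend removed, and DDIT4 in NICD4 moves from 0.11 to -1.02.

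The classical target genes split. ASNS (ENSG00000070669, chromosome 7, 97481430 to 97501854, minus strand), asparagine synthetase and the gene in which the amino acid response element was worked out, changed little. It stood at 92.1, 84.8 and 89.5 CPM in EV and 90.9, 96.0 and 92.1 in NICD1. It stood at 108, 105 and 114 CPM in NICD2, 98.0, 89.2 and 85.0 in NICD3, and 116, 102 and 101 in NICD4. NICD2 and NICD4 lay above EV and the other groups overlapped it. ASNS rose by 0.29 ± 0.08 in NICD2 (1.23-fold, limma adjusted p = 0.0048) and by 0.26 in NICD4 (adjusted p = 0.0070), and was 0.07 in NICD1 (adjusted p = 0.45) and 0.03 in NICD3 (adjusted p = 0.75). It is the most GC-poor gene of the set. Once the GC trend was removed it rose in all 4 groups, by 0.59, 0.61, 0.45 and 0.89, whereas scaled by total reads it fell in NICD1 (-0.39), NICD3 (-0.39) and NICD4 (-0.29) and was 0.01 in NICD2. With the length trend removed ASNS also rose in NICD1 (0.19), and without the filter on low counts the call in NICD4 was lost (0.20).

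CHAC1 gave the largest rise of the 10 genes in NICD2 and NICD4, while in NICD1 and NICD3 CEBPB rose more. CHAC1 (ENSG00000128965, chromosome 15, 41245160 to 41248710, plus strand) encodes a gamma-glutamylcyclotransferase that degrades glutathione and is a target of ATF4 and CHOP. It stood at 4.31, 3.52 and 3.72 CPM in EV. It reached 10.4, 9.21 and 9.73 CPM in NICD1, 15.0, 14.2 and 14.7 in NICD2, 10.8, 8.71 and 8.92 in NICD3, and 15.8, 16.2 and 18.4 in NICD4. The libraries formed 3 levels, with EV lowest, NICD1 and NICD3 between, and NICD2 and NICD4 highest. The change was 1.34 ± 0.11 in NICD1 (2.52-fold, limma adjusted p = 1.4e-07), 1.92 in NICD2 (3.78-fold), 1.29 in NICD3 (2.44-fold) and 2.11 in NICD4 (4.32-fold, adjusted p = 1.3e-09). NICD2 exceeded NICD1 by 0.58 (adjusted p = 0.0019), and NICD4 exceeded NICD1 by 0.78 and NICD3 by 0.82, while NICD3 and NICD1 differed by -0.05 (95% interval -0.29 to 0.19). The rise remained called with the GC trend removed (0.72, 1.65, 0.81 and 1.23), where NICD4 lay below NICD2 (-0.42, adjusted p = 0.011), and scaled by total reads (0.88, 1.64, 0.87 and 1.57).

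TRIB3 (ENSG00000101255, chromosome 20, 361261 to 378203, plus strand) encodes a pseudokinase that CHOP and ATF4 induce and that in turn inhibits ATF4 and AKT. Its EV libraries stood at 54.9, 45.7 and 48.4 CPM. NICD1 stood at 82.6, 102 and 77.9, NICD2 at 93.7, 78.9 and 92.8, NICD3 at 74.1, 62.7 and 64.9, and NICD4 at 135, 85.2 and 98.8 CPM. All lay above EV. The changes were 0.81 ± 0.15 (limma adjusted p = 0.00019), 0.83, 0.44 (adjusted p = 0.018) and 1.08, and NICD4 exceeded NICD3 by 0.64 (adjusted p = 0.0036). The call in NICD3 was lost without EV replicate 2 (0.39, adjusted p = 0.063) and without NICD3 replicate 1 (0.36, adjusted p = 0.075). TRIB3 still rose, with the GC trend removed, in NICD1 (0.19, adjusted p = 0.046) and NICD2 (0.56), was 0.18 in NICD4 (adjusted p = 0.057), and reversed to -0.05 in NICD3, which was not called. Total reads gave 0.36, 0.55, 0.02 and 0.53, with no call in NICD3.

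The 2 genes that restrain mTORC1, the kinase that promotes growth when amino acids are plentiful, separated the receptors most. DDIT4 (REDD1; ENSG00000168209, chromosome 10, 74033678 to 74035794, plus strand), which acts through the TSC complex, was at 23.1, 25.6 and 23.8 CPM in EV. It was at 61.1, 57.2 and 63.4 CPM in NICD1, 32.9, 35.4 and 29.5 in NICD2, 39.7, 40.99 and 38.0 in NICD3, and 23.8, 30.2 and 24.7 in NICD4. NICD1 stood apart from all others and NICD4 overlapped EV. DDIT4 rose by 1.32 ± 0.10 in NICD1 (2.50-fold, limma adjusted p = 3.3e-08), by 0.43 in NICD2 (adjusted p = 0.0016) and by 0.71 in NICD3 (1.6e-05), and was 0.11 in NICD4 (adjusted p = 0.29). Its differences from NICD1 were -0.90 in NICD2, -0.61 in NICD3 and -1.21 in NICD4 (adjusted p = 9.9e-07). DDIT4 is GC-rich. Without the GC trend it rose in NICD1 (0.50, adjusted p = 0.014), was 0.06 and 0.10 in NICD2 and NICD3, not called, and fell in NICD4 (-1.02), and the differences from NICD1 were -1.52 in NICD4, called, and -0.44 and -0.40 in NICD2 and NICD3, not called. By total reads DDIT4 was 0.87 in NICD1 and, reversed, -0.43 in NICD4, and its rises in NICD2 (0.15) and NICD3 (0.29) were not called.

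SESN2 (ENSG00000130766, chromosome 1, 28586038 to 28609002, plus strand) encodes Sestrin2, a leucine sensor that holds back GATOR2 and so mTORC1. It was at 22.3, 20.1 and 20.6 CPM in EV, 22.8, 27.2 and 22.4 in NICD1, and 22.7, 23.1 and 22.5 in NICD3. In NICD2 it was at 12.5, 11.7 and 12.1 CPM, below every other library, and in NICD4 at 48.1, 32.2 and 41.1 CPM, above every other. SESN2 fell in NICD2 (-0.79 ± 0.12, limma adjusted p = 7.0e-05), rose in NICD4 by 0.93 (adjusted p = 5.7e-06), and missed the threshold at 0.19 in NICD1 (adjusted p = 0.16) and 0.12 in NICD3 (0.39). The opposite changes held with the GC trend removed, at -0.996 in NICD2 and 0.23 in NICD4 (adjusted p = 0.017), and scaled by total reads, at -1.08 and 0.38. The small changes in NICD1 and NICD3 reversed in both, to -0.28 and -0.26 and to -0.26 and -0.30, and were then called, while with the length trend removed they were 0.60 and 0.50 and were called as rises. NICD4 exceeded NICD2 by 1.72 ± 0.12 (limma adjusted p = 1.8e-07), the widest gap between any NICD groups in these 10 genes, and by 1.22 with the GC trend removed.

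The F-test over the 4 NICD groups called 9 of the 10 genes, where 67.9% of all tested genes were called. By pairs, NICD2 against NICD1 gave 6 calls (37.2% of all genes), NICD3 against NICD1 gave 3 (6.72%), and NICD4 against NICD1 gave 4 (27.2%). NICD3 against NICD2 gave 5 (15.0%), NICD4 against NICD2 gave 4 (63.5%), and NICD4 against NICD3 gave 7 (49.0%). In the last pair, 6 of the 7 were higher in NICD4 (ATF5, DDIT3, TRIB3, CHAC1, ASNS and SESN2) and DDIT4 was lower. NICD3 and NICD1 had the fewest calls over all genes, and the 3 calls between them here, DDIT3 (-0.46), DDIT4 (-0.61) and CEBPB (-0.33), were all lower in NICD3. That count fell to 1 under several alternatives, among them removal of the GC trend (9.78% of all genes called). So did the omission of NICD1 replicate 1 or 2 or any 1 NICD3 library (3.07% to 5.13% of all genes). NICD4 against NICD2 gave 7 calls in place of 4 with the GC trend removed or scaled by total reads, where 54.4% and 65.6% of all genes were called.

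**Figure D4:**
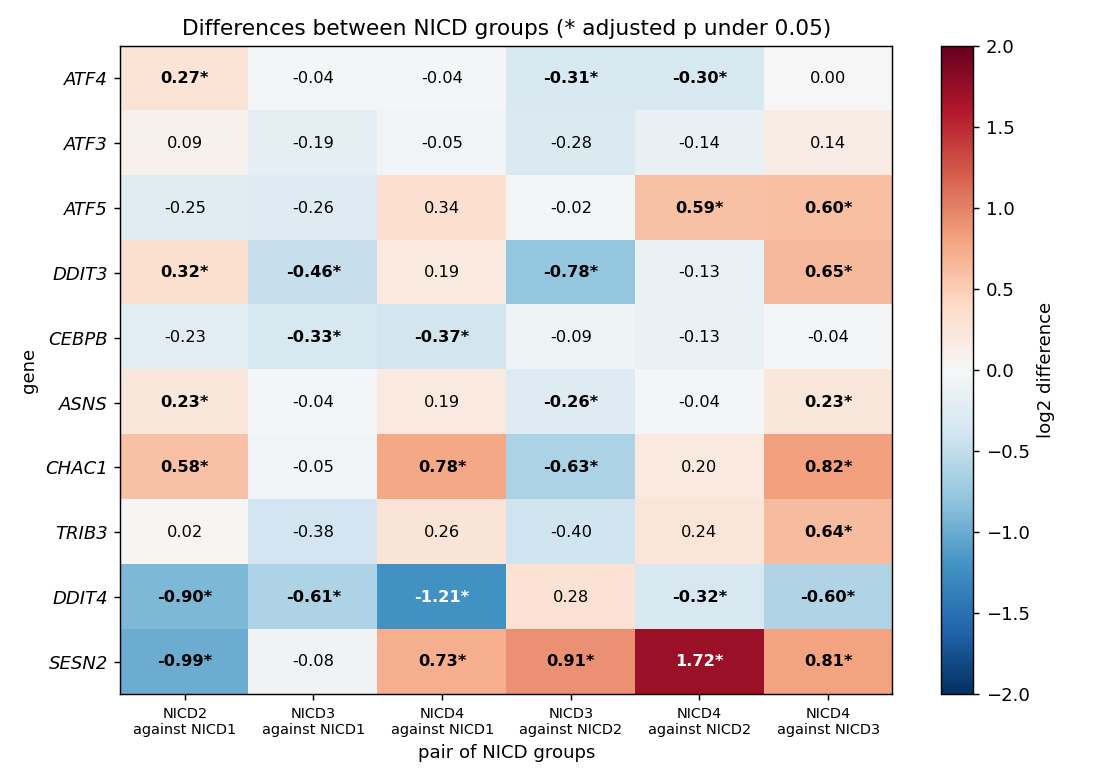
Log2 differences between NICD groups (colour and number, red for higher in the first group) for the 10 genes (y axis) and 6 pairs of groups (x axis), with a star where adjusted p is under 0.05. The deepest colours are those of SESN2 in NICD4 against NICD2 (1.72) and DDIT4 in NICD4 against NICD1 (-1.21), and the ATF3 row has no star.

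The order of the levels, with neighbours compared by the same fit, ran as follows. For CHAC1 it was EV, NICD3, NICD1, NICD2 and NICD4, and steps were called between EV and NICD3 and between NICD1 and NICD2. For DDIT4 it was EV, NICD4, NICD2, NICD3 and NICD1, with steps between NICD4 and NICD2 (0.32, adjusted p = 0.010, with overlapping libraries) and between NICD3 and NICD1. For SESN2 it was NICD2, EV, NICD3, NICD1 and NICD4, with the first and last steps called. For DDIT3 (NICD3, EV, NICD1, NICD4, NICD2) the step from EV to NICD1 was called, and for ATF4 (EV, NICD3, NICD4, NICD1, NICD2) the last step was. For ATF3, ATF5, TRIB3 and CEBPB the called step between neighbours was the one that separates EV from the NICD groups, and for ASNS no neighbours differed.

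The wider programme was described from lists of genes known for these roles. Beside each list, 35.6%, 29.6%, 33.0% and 37.3% of all tested genes rose and 39.8%, 30.0%, 36.2% and 43.6% fell as fitted. Amino acid and one-carbon enzymes, which ATF4 is known to raise, rose and fell in mixed numbers: of 12 tested, 6, 6, 6 and 7 rose and 3, 4, 5 and 4 fell (medians 0.23, 0.07, 0.32 and 0.21). The counts were 8, 5, 6 and 7 that rose and 2, 3, 2 and 2 that fell with the GC trend removed (medians 0.36, 0.13, 0.29 and 0.35). Over all 14737 genes in that fit, 5698, 5305, 5376 and 5593 rose and 4702, 3602, 4394 and 5466 fell. PHGDH, which opens serine synthesis, rose from 47.6 CPM to 132, 97.8, 154 and 171 CPM (1.47, 1.04, 1.69 and 1.85). PSAT1 and PSPH, which follow it in that pathway, fell in all 4 groups, by 0.31 to 0.68 and by 0.35 to 0.74. With the GC trend removed PSPH still fell (-0.44, -0.47, -0.44 and -0.92). PSAT1 was then not called in any group (-0.01, 0.01, -0.08 and -0.05). PYCR1, which completes proline synthesis, rose from 138 to 408, 301, 351 and 360 CPM, and GPT2, a mitochondrial alanine transaminase, from 40.1 to 63.9, 57.7, 60.6 and 90.2 CPM. CTH, the cystathionine lyase that makes cysteine, fell from 9.27 to 3.83, 4.71, 5.10 and 3.47 CPM. PHGDH, PYCR1, GPT2 and CTH kept sign and call in the 4 comparisons with the GC trend removed, at 0.41 to 1.45 for the rises. By total reads GPT2 was not called in NICD3 (0.18).

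Of 12 amino acid transporters tested, 5, 5, 6 and 5 rose and 5, 2, 3 and 5 fell (medians -0.09, 0.14, 0.23 and 0.25), and 6, 7, 6 and 5 rose and 5, 2, 3 and 5 fell with the GC trend removed (medians -0.03, 0.43, 0.23 and 0.11). The chains of the leucine exchanger rose together, SLC7A5 from 226 CPM to 388, 388, 343 and 418 CPM and its partner SLC3A2 from 218 to 338, 355, 317 and 372 CPM. SLC1A5, which imports glutamine, rose by 0.80, 0.80, 0.92 and 0.92, and the glycine transporter SLC6A9 by 1.80, 1.10, 1.68 and 2.09 from 1.63 CPM. SLC7A5 with the GC trend removed was not called in NICD4 (0.09), and scaled by total reads SLC3A2 was not called in NICD3 (0.12).

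Aminoacyl-tRNA synthetases and the tRNA exporter XPOT, 13 genes, gave 5, 7, 5 and 4 rises and 6, 3, 5 and 7 falls (medians 0.11, 0.20, 0.14 and -0.33). Removing the GC trend gave 8, 9, 8 and 6 rises and 3, 2, 3 and 5 falls (medians 0.19, 0.43, 0.19 and 0.05). SARS1 rose by 0.68, 0.64, 0.71 and 0.77 and WARS1 by 0.51, 0.48, 0.53 and 0.62, although scaled by total reads WARS1 was not called in NICD1 (0.05), NICD3 (0.11) or NICD4 (0.07). IARS1 fell from 233 CPM to 95.6, 137, 109 and 66.8 CPM and XPOT from 104 to 52.0, 68.8, 47.2 and 36.3 CPM. The IARS1 fall was -1.30, -0.78, -1.09 and -1.83, and -0.74, -0.45, -0.65 and -1.15 with the GC trend removed.

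Of 16 other tested genes reported as ATF4 or CHOP targets, 5, 5, 4 and 5 rose and 10, 6, 10 and 10 fell (medians -0.67, -0.27, -0.62 and -0.79). With the GC trend removed 5, 5, 4 and 4 rose and 7, 6, 8 and 7 fell (medians -0.12, 0.02, -0.19 and -0.32). Of all tested genes, 35.6%, 29.6%, 33.0% and 37.3% rose and 39.8%, 30.0%, 36.2% and 43.6% fell as fitted. EIF4EBP1 (4E-BP1, a brake on cap-dependent translation) rose from 99.8 CPM to 274, 232, 233 and 442 CPM, and TSC22D3 (GILZ) rose from 0.830 to 1.69, 2.15, 3.28 and 2.41 CPM. GADD45A, a growth arrest gene, fell from 67.4 to 22.3, 28.8, 22.7 and 12.7 CPM, and the death receptor TNFRSF10B, a CHOP target, fell from 84.2 to 42.1, 46.9, 49.5 and 37.0 CPM. These 4 kept sign and call with the GC trend removed.

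Of 28 tested genes of the mTORC1 amino acid and stress pathway, 11, 9, 10 and 11 rose and 12, 6, 10 and 13 fell (medians -0.17, -0.05, 0.05 and -0.14), or 10, 12, 10 and 12 and 6, 5, 6 and 9 with the GC trend removed (medians 0.09, 0.18, 0.12 and 0.16). WDR24, a subunit of the GATOR2 complex that Sestrin2 binds, rose from 18.0 CPM to 70.1, 40.8, 49.0 and 77.8 CPM. The Ragulator subunits LAMTOR2 and LAMTOR4 rose by 1.26, 0.88, 1.35 and 1.92 and by 1.82, 0.87, 1.64 and 2.42. The GTPase gene RRAGB fell (log2 change -1.32, -1.05, -1.11 and -1.71) from 5.66 CPM. These 4 kept sign and call with the GC trend removed.

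Unfolded protein response genes outside the ATF4 branch gave 8 rises in each comparison and 9, 5, 5 and 9 falls among 19 tested (medians 0.03, -0.01, 0.01 and -0.16). Removing the GC trend gave 9, 9, 10 and 9 rises and 5, 4, 1 and 6 falls (medians 0.07, 0.32, 0.30 and 0.14). SDF2L1, an endoplasmic reticulum chaperone cofactor, rose from 87.9 CPM to 350, 222, 324 and 429 CPM, and the secreted survival factor MANF from 126 to 326, 252, 327 and 369 CPM. CREB3 rose by 0.89, 0.68, 0.65 and 1.10, and EDEM1, which helps clear misfolded glycoproteins, fell (log2 change -1.07, -0.70, -0.93 and -1.10). All 4 kept sign and call with the GC trend removed.

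**Figure D5:**
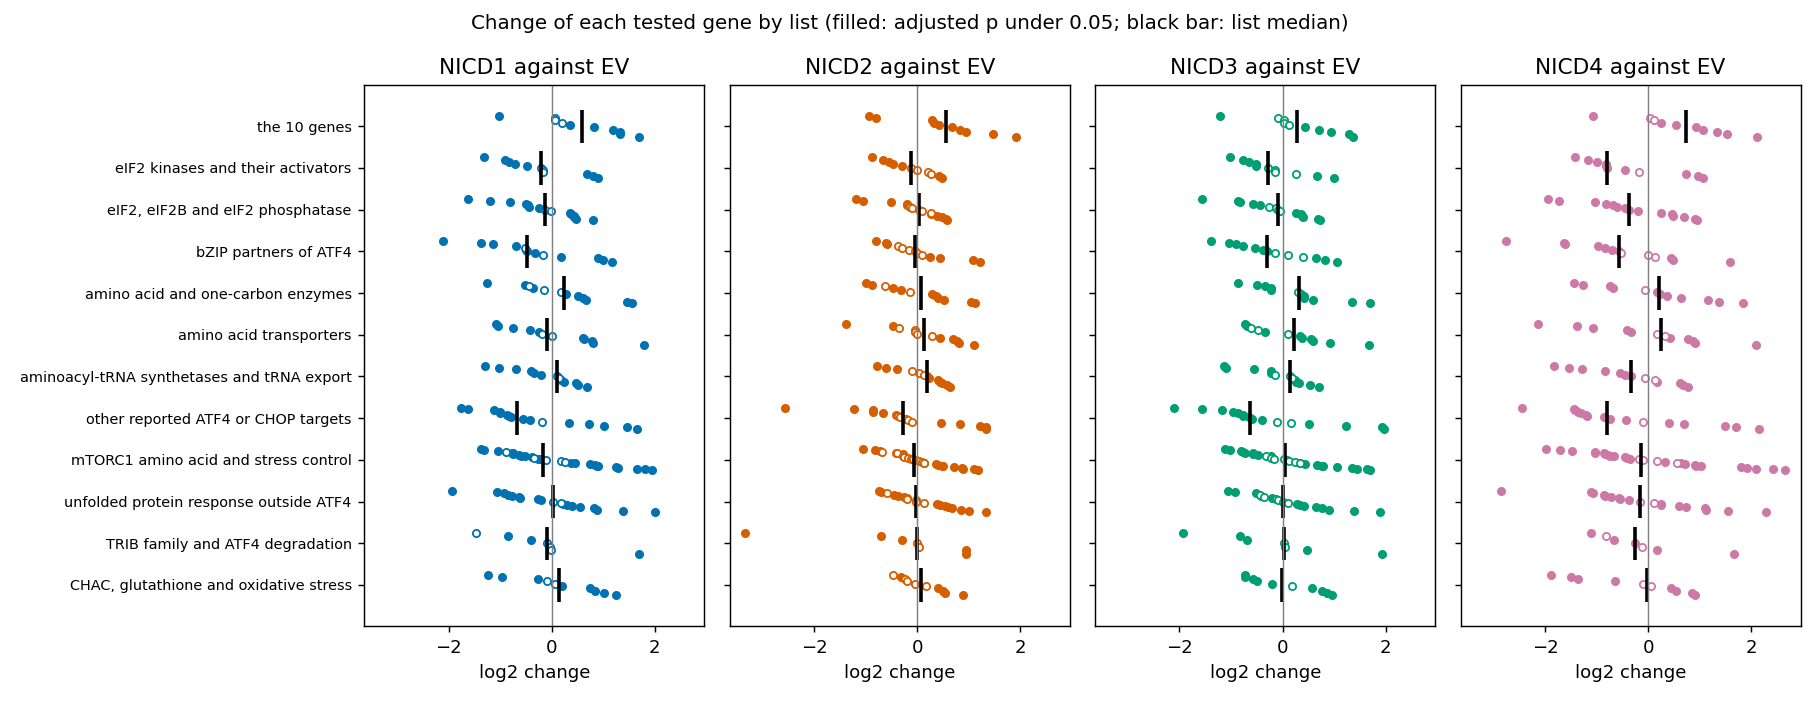
Log2 change against EV (x axis) of every tested gene on each list (y axis), 1 panel for each NICD group; filled points have adjusted p under 0.05 and black bars are list medians. The median of the 10 genes (0.59, 0.55, 0.28 and 0.74) lies to the right of zero in all 4 panels, and that of the other reported ATF4 or CHOP targets (-0.67, -0.27, -0.62 and -0.79) to the left. With the GC trend removed these medians were 0.50, 0.58, 0.05 and 0.20 and -0.12, 0.02, -0.19 and -0.32.

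The genes most like each of the 10 were found by Pearson's r of scaled log2 values over the 15 libraries, among 11754 genes. The libraries fall into 5 groups and share their depth and GC lean, so high values are common, and the list is a description. ATF4 was most like PPP3CA (r = 0.95), ATF3 like RALGDS (0.98) and DDIT3 like ABHD4 (0.90) and JUNB (0.89). CEBPB was most like AIFM2 (0.99), ATF5 like PALM3 (1.00) and MRPS5 (0.99), and ASNS like CABLES1 (0.91). TRIB3 was most like C11orf24 (0.98) and next the tRNA synthetase gene YARS1 (0.97), and CHAC1 like HES4 (0.97), a NOTCH target gene of the HES family. DDIT4 was most like ALDH3A2 (0.96) and SESN2 like RPS6KL1 (0.98). Within the set, ATF5 and TRIB3 were the most alike pair (r = 0.95, Spearman's rho 0.93).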

How the data were processed

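The 15 libraries were made with a TruSeq RNA v2 polyA protocol, per the labels' protocols. The deposited values are log2 of raw read counts plus 1, per the file headers and the values: undoing the logarithm gave whole numbers within 0.001 for 100% of them. The authors' tools were TopHat2 2.0.6, HTSeq and GRCh37, per the submitters' processing notes, and counting settings are not given in the sources used here. Of 31352 genes, 1828 had no symbol in the reference (GENCODE release 29).

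Genes with at least 0.548 CPM in 3 libraries and 15 reads in all (15122) were tested. Reads were scaled by TMM factors, 1 was added (0.0545 CPM, which understates changes of low genes), and log2 values were fitted in limma 3.58.1 (R 4.3.3, statmod 1.5.0) with 1 mean per group over all 15 libraries and a trended, robust prior. Tests are two-sided moderated tests. The deposited unit is log2, and although whole counts were recovered from it, no negative-binomial model was fitted. GC and length trends were removed with a smooth curve (6 degrees of freedom) over the 14737 tested genes with a known transcript (97.5%). Alternatives were total-read and median-of-ratios scaling, no filter, other pseudocounts, voom, an untrended prior, 2 groups only, a replicate block, GC and length trends, and each library left out.

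The members and lists were chosen with earlier results of these data known. All members are named. Of the other list genes, the eIF2 kinases and phosphatase subunits are always named, and from each list up to 4 genes changed one way in all 4 comparisons with EV and averaging no less than 1 in log2 CPM, those with the largest smallest change first. MAFF, NFE2L3, EGLN1, HMOX1 and NQO1 came last under this rule and are described in less detail. As fitted, NFE2L3 and EGLN1 fell in all 4 comparisons with EV. MAFG, PSAT1 and PSPH are outside the rule. MAFG is named beside MAFK, and PSAT1 and PSPH are named beside PHGDH.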

Additional observations from a re-analysis of the deposited data

Results flagged for a closer look

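As fitted, SESN2 was the gene of the 10 with calls in opposite directions against EV, lower in NICD2 and higher in NICD4. The difference itself was tested: NICD4 exceeded NICD2 by 1.72 ± 0.12 (limma adjusted p = 1.8e-07), with all 3 NICD4 libraries above all 3 NICD2 libraries. In that pair 63.5% of all tested genes were called, and in 67.1% the libraries did not overlap. With the GC trend removed the difference was 1.22. In that fit ATF4 (0.25 in NICD2, -0.31 in NICD4) and DDIT4 (0.50 in NICD1, -1.02 in NICD4) also had opposite calls against EV. By total reads DDIT3 (0.40 in NICD2, -0.51 in NICD3) and DDIT4 (0.87 in NICD1, -0.43 in NICD4) had them too. Other called differences between NICD groups stand in the report.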

How the results depend on the processing

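The 40 changes of the 10 genes against EV kept direction and side of the threshold with median-of-ratios scaling, pseudocounts of 0.5 and 5, voom, an untrended prior and only the 2 groups compared. The same held with the replicate block, where the counts called were 7, 10, 6 and 8; between NICD groups it gave 5 calls in place of 6 in NICD2 against NICD1, 2 in place of 3 in NICD3 against NICD1, and the other counts as before. Over all groups, same-numbered libraries deviated together little (median r = 0.05, from -0.43 to 0.36). Among EV, NICD2, NICD3 and NICD4, however, replicates 1 did so (r = 0.17 to 0.28), as did replicates 2 (r = 0.14 to 0.36). Replicates 3 of these groups did not (r = -0.20 to 0.05), and NICD2 replicate 3 went with replicate 1 of EV, NICD3 and NICD4 (r = 0.23 to 0.24). NICD1 also broke this pattern, and its replicate 2 went with replicate 1 of the other groups (r = 0.22 to 0.41). The labels do not say that the numbers pair samples, so the block was kept as an alternative.

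Scaled by total reads, 10 changes reversed: ATF4 in NICD1, NICD3 and NICD4 (-0.39, -0.39, -0.52), DDIT3 in NICD1 (-0.0941), DDIT4 in NICD4 (-0.43), ASNS in NICD1, NICD3 and NICD4 (-0.39, -0.39, -0.29), and SESN2 in NICD1 and NICD3 (-0.26, -0.30). With the GC trend removed, alone or with the replicate block, ATF4 in NICD1, NICD3 and NICD4 (-0.14, -0.16, -0.31), DDIT3 in NICD3 (0.0023), DDIT4 in NICD4 (-1.02), TRIB3 in NICD3 (-0.0451) and SESN2 in NICD1 and NICD3 (-0.28, -0.26) reversed. So did EIF2AK2 in NICD3 (0.0650), EIF2AK4 in NICD1, NICD2 and NICD4 (0.31, 0.0156, 0.46) and OPLAH in NICD4 (-0.25). GC removal also moved the median of all genes by 0.13, 0.11, 0.11 and 0.12. Without the filter ATF4 in NICD4 was -0.0285 and ASNS in NICD4 lost its call (0.20, adjusted p = 0.069). With the length trend removed 6 changes gained a call and none reversed. The cause was not tested.

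Calls in NICD3 against NICD1 went from 3 to 1 with total reads, no filter, only the 2 groups, and the GC trend removed without or with the block. The shares of all genes called in these fits were 6.2%, 2.33%, 6%, 9.78% and 9.55%. With 1 library left out, the calls in that pair ranged from 1 to 4, with fewer libraries in the fit. Calls in NICD4 against NICD2 went from 4 to 7 with total reads (65.6% of all genes) and with the GC trend removed (54.4%), with or without the block. With 1 library left out, uncalled changes crossed zero in NICD3 for ATF4 (-0.0064 to 0.0503), DDIT3 (-0.16 to 0.0075) and ASNS (-0.0281 to 0.0745). Depth was no limit for the 10 genes, each with at least 95 reads in every library.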

Other observations

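TRIB3 belongs to a small group of genes that act on ATF4 protein or share the tribbles fold. Of 7 tested, 1, 2, 2 and 2 rose and 2, 3, 3 and 3 fell in NICD1 to NICD4 (medians -0.10, 0.00, 0.04 and -0.24). Removing the GC trend gave 4 rises in each and 1, 2, 3 and 1 falls (medians 0.23, 0.28, 0.39 and 0.23). FBXW11, a subunit of the ubiquitin ligase that targets ATF4, fell from 39.1 CPM in EV to 21.7, 24.0, 21.98 and 18.3 CPM (log2 change -0.85, -0.70, -0.83 and -1.10), or -0.42, -0.43, -0.48 and -0.59 with the GC trend removed. EGLN3, a prolyl hydroxylase reported to bind ATF4, rose from 0.814 CPM to 2.71, 1.61, 3.14 and 2.63 CPM, by 1.70, 0.96, 1.92 and 1.68.

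CHAC1 acts on glutathione, and of 10 other genes of glutathione and oxidative stress 5, 4, 4 and 4 rose and 3, 1, 5 and 4 fell (medians 0.13, 0.07, -0.01 and -0.01), or 8, 4, 5 and 3 and 1, 0, 0 and 4 with the GC trend removed (medians 0.29, 0.14, 0.14 and -0.13). GSS, which completes glutathione synthesis, rose by 0.74, 0.50, 0.56 and 0.86, and by 0.54, 0.43, 0.39 and 0.53 with the GC trend removed. As fitted, HMOX1 and NQO1 also rose in all 4 comparisons, by 0.44 to 0.90 and by 0.41 to 1.01. OPLAH, which returns the cyclic product of CHAC1 to glutamate, rose by 1.24, 0.53, 0.95 and 0.91. With the GC trend removed the OPLAH rise was called in NICD1 (0.39) and NICD3 (0.32), not in NICD2 (0.15), and it reversed to -0.25 in NICD4. By total reads GSS was not called in NICD3 (0.14, adjusted p = 0.078), nor OPLAH in NICD2 (0.25, adjusted p = 0.065).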
